A study of Mus musculus with 14 samples.

Results

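The 50 genes described here are named for the cytosolic translation initiation factors of the mouse, and include genes of regulators such as Eif4ebp1. All 50 are called initiation factor genes below. They were chosen by symbol, as every protein-coding gene of the deposited table whose name is Eif followed by a digit from 1 to 6, out of 46517 rows with an Ensembl identifier. The 4 kinases of eIF2 (Eif2ak1 to Eif2ak4), the Y-linked Eif2s3y, unnamed genes and pseudogenes were left out. The rule uses no measured value, but it was set with earlier results of these data known. By factor they comprise 5 genes of the eIF1 group, 5 of eIF2, 5 of eIF2B, 14 of eIF3, 16 of eIF4, 4 of eIF5 and 1 of eIF6. RNA was sequenced from 14 untreated small cell lung cancer tumours of mice in which Rb1 and Trp53 are floxed. In 11 of them (RPM) the mice also carried a Myc T58A allele behind a Lox-Stop-Lox cassette (LSL), with LSL/LSL in 9 tumours and LSL/+ in 2 (RPM replicates 2 and 4). The other 3 (RPR2) came from mice with floxed p130, the product of Rbl2. In both models an adenovirus with Cre driven by the Cgrp promoter of neuroendocrine cells starts the tumours, so Rb1 and Trp53 are floxed in both groups, and Myc and p130 set them apart. The tissue was cut out by eye and holds other lung cells as well. In such bulk samples fewer cells of a type and less RNA per cell cannot be told apart.

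Initiation is the step at which a ribosome finds the start codon of an mRNA. The eIF2 trimer brings the initiator tRNA and is recharged by the exchange factor eIF2B, the eIF1 factors and eIF5 govern start codon choice, and the many-subunit eIF3 scaffold holds the small ribosomal subunit. The eIF4F complex of eIF4E (cap binding), eIF4A (helicase) and eIF4G (scaffold) loads the mRNA, and the 4E-binding proteins, which mTORC1 switches off, block eIF4E. Eif4e and other initiation factor genes are known as targets of MYC, which drives ribosome production and protein synthesis.

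Values are FPKM (fragments per kilobase of transcript, scaled to the size of the library), so levels can be compared between genes per length. Differences are means of log2(FPKM + 1) in RPM minus RPR2, which understates changes of low genes. They were tested by limma with a Benjamini-Hochberg adjusted p below 0.05 over all 15719 genes that reached 1 FPKM in 3 or more libraries. Steps in the lowest values correspond to about 17.0 to 20.3 M reads (M, mega) in the RPM libraries and 21.4 to 22.3 M in those of RPR2, an estimate, since no counts were given. For a transcript of 2 kb this makes 3 reads worth 0.0673 to 0.0882 FPKM, counting error only. Of the 50 genes 49 passed the filter, and 48 of these were at 1 FPKM or more in all 14 tumours. The germline form Eif4e1b, at 0 to 0.13 FPKM across RPM tumours and at 0.05, 0.20 and 0.05 in RPR2, did not pass.

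As a check of the labels, Myc was at 48.4 to 384 FPKM in the RPM tumours (lowest in replicate 2, highest in replicate 7) and at 4.68, 6.83 and 13.6 in RPR2. Rb1 was at 5.19 to 22.6 FPKM in RPM tumours and at 39.4, 49.8 and 3.58 in RPR2, and Trp53 at 7.93 to 16.1 in RPM apart from 78.0 in replicate 9, and at 10.3, 12.45 and 5.69 in RPR2. Rbl2 did not separate the models, at 3.43 to 9.90 FPKM against 3.58, 7.55 and 3.34 FPKM. Whether the counted reads of these floxed genes lie outside the deleted parts was not tested. RPR2 replicate 3 stood apart from the other tumours in its cell type markers. Its summed FPKM of 7 neuroendocrine markers, of which 1 rose and 1 fell in RPM, was 12.3, against 2301 and 3423 in RPR2 replicates 1 and 2 and 213 to 1237 in RPM. The 6 alveolar type 2 markers summed to 50608 FPKM there, against 1201 and 1909 in the other RPR2 tumours and 14.8 to 852 in RPM, where Sftpa1, Sftpd and Lamp3 were at 0 in 1 to 3 tumours. All 6 of these markers fell in RPM, as did 3 of 4 for alveolar type 1 and 2 of 4 for club and ciliated cells. Of 5 fibroblast markers 3 rose and 1 fell, and 2 of 3 for smooth muscle rose. None of the 5 macrophage, 3 tested neutrophil and 1 tested B cell markers was called. Of 4 endothelial markers 1 fell. Of the 6 T and NK cell markers only Cd4 passed the filter, and it rose. Cd3e, Cd3d, Cd8a, Nkg7 and Ncr1 were too low to be tested, so a change of these cells was not shown. The part of these cells in the differences below was not tested.

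Initiation factor genes were higher in the Myc model. Of the 49 tested, 30 rose in RPM relative to RPR2 and none fell, whereas 18.4% of all tested genes rose and 22.8% fell, 41.2% in either direction (limma, Benjamini-Hochberg adjusted). The set of all tested genes was not matched to the members by level. Among genes with a mean FPKM of at least 5, 30 of 48 members rose, beside 23.8% of all such genes. Under TPM scaling 18 members rose and 1 fell, while 11.95% of all tested genes rose and 3588 of 15719 fell. Without RPR2 replicate 2 the count of rises was 20, beside 14.9% of all tested genes. The only member lower at an unadjusted p under 0.05 was Eif2d. The median difference of the 49 was 0.58 log2 units, beside -0.06 for all tested genes, and it was above 0 for 44 of them. In 22 of the 49 the models did not overlap, with every RPM tumour above the highest RPR2 tumour, which held for 11.1% of all tested genes. No member lay below in the same way, beside 13.6% of all tested genes. For single genes, overlap here and below was judged on FPKM as deposited, and it was not judged again under TPM scaling. The summed FPKM of a tumour was 5.991e+05 to 9.4e+05 in RPM and 5.235e+05 to 8.253e+05 in RPR2. The 50 genes together made up 0.863 to 1.18% of the summed FPKM of an RPM tumour and 0.592 to 0.810% of an RPR2 tumour, so the models did not overlap. At least 2-fold rises were found for 10 of the 49 (20.4%), beside 10.5% of all tested genes, and the largest were in Eif5a (4.19-fold), Eif3i (2.73-fold), Eif4e (2.47-fold) and Eif4a1 (2.41-fold).

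**Figure D1:**
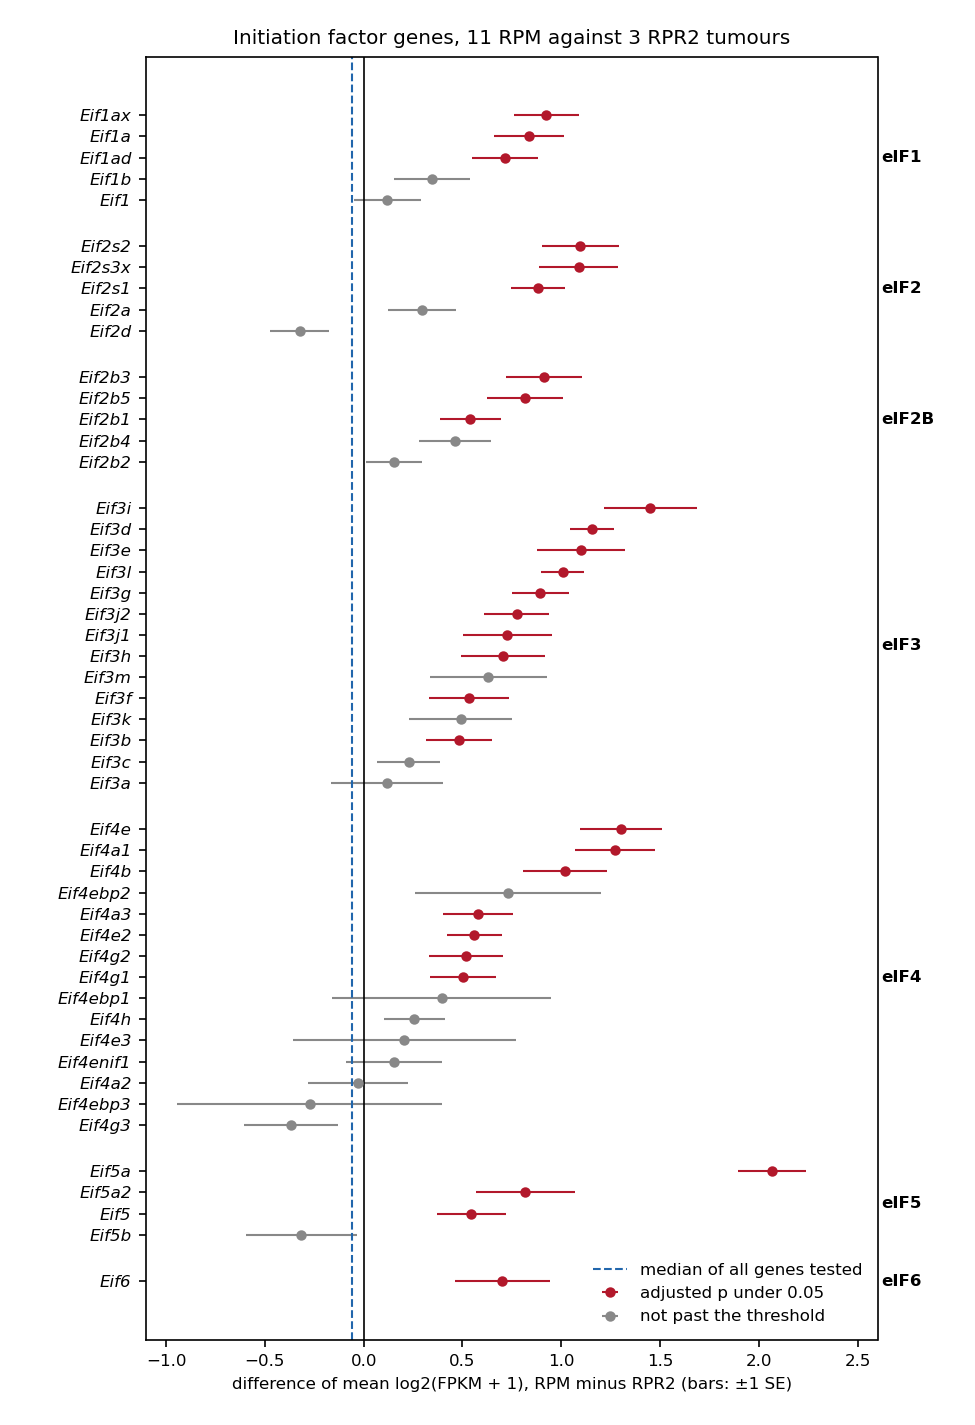
Difference of mean log2(FPKM + 1) between 11 RPM and 3 RPR2 tumours for the 49 tested initiation factor genes, grouped by factor, with bars of 1 standard error; the dashed line is the median of all genes tested. The 30 red genes passed the test and all lie to the right of 0, with Eif5a farthest out at 2.07, while Eif2d, Eif4g3, Eif4ebp3, Eif5b and Eif4a2 lie left of it.

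The 3 subunits of the eIF2 trimer, which carries initiator tRNA to the ribosome, all rose. Eif2s1 encodes the alpha subunit that the stress kinases phosphorylate. It ranged from 40.4 to 55.9 FPKM in RPM (median 49.5) and stood at 29.2, 20.75 and 27.1 in RPR2. Eif2s2, for the beta subunit, ranged from 80.04 to 142 (median 101.5) in RPM against 47.1, 42.5 and 57.7 FPKM. Eif2s3x, for the gamma subunit, ranged from 84.7 to 147 (median 122.5) against 52.8, 70.8 and 41.3. In each of the 3 genes the lowest RPM tumour was above the highest RPR2 tumour. The differences were 0.88 ± 0.136, 1.10 ± 0.197 and 1.09 ± 0.198 log2 units (SE, n = 11 and 3; limma adjusted p = 0.000143, 0.000467 and 0.000519). The other 2 genes of the group, which lie outside the trimer, did not pass. Eif2a, which can bring in initiator tRNA by another route, was at 36.9 to 53.8 FPKM across RPM tumours and at 28.6, 33.95 and 51.4 in RPR2 (difference 0.30, 95% interval -0.07 to 0.66). Eif2d, a factor that acts on initiator tRNA without the trimer, was at 15.4 to 26.4 FPKM across RPM tumours and at 24.3, 25.8 and 27.04 in RPR2 (-0.32, interval -0.64 to -0.01, limma adjusted p = 0.0906).

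Of the eIF2B subunits, which exchange GDP for GTP on eIF2, 3 of 5 rose. Eif2b3 and Eif2b5 encode the gamma and epsilon subunits, which form the catalytic part, and both did so with no overlap. Eif2b3 ranged from 16.8 to 37.1 FPKM in RPM (median 23.6) and was at 13.6, 12.0 and 10.7 in RPR2. Its difference was 0.91 ± 0.193 log2 units (SE, n = 11 and 3; limma adjusted p = 0.00161). Eif2b5 ranged from 44.4 to 77.6 FPKM (median 56.4) against 27, 25.85 and 44.3, so that the third RPR2 tumour lay just under the lowest RPM tumour (0.82 ± 0.194 log2 units, limma adjusted p = 0.00365). Among the regulatory subunits, Eif2b1 ranged from 36.2 to 59.0 FPKM (median 47.9) against 40.03, 28.0 and 34.5, with 1 RPR2 tumour inside the RPM range. It rose by 0.54 ± 0.154 (limma adjusted p = 0.0115). Eif2b4 lay above RPR2 in all RPM tumours (25.8 to 55.2 against 22.05 to 24.6 FPKM) but missed the threshold (difference 0.46, limma adjusted p = 0.0522), and Eif2b2 had the smallest difference of the 5 (0.15, 95% interval -0.15 to 0.46).

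Among the eIF1 factors, which scan for the start codon with the small subunit, the eIF1A genes rose and the eIF1 genes did not pass. Under TPM scaling the calls of Eif1a and Eif1ad were lost (limma adjusted p = 0.0726 and 0.134). Eif1ax ranged from 41.4 to 60.5 FPKM in RPM (median 56.6) against 35.4, 31.6 and 20.1 in RPR2, a difference of 0.92 ± 0.163 log2 units (SE, n = 11 and 3; limma adjusted p = 0.000409). Its autosomal paralog Eif1a ranged from 44.7 to 84.0 (median 56.8) against 37.6, 36.8 and 24.1 FPKM (0.84 ± 0.176, limma adjusted p = 0.00160). The models did not overlap in either gene, and RPR2 replicate 3 was lowest in both. Eif1ad, which encodes a protein with an eIF1A domain, ranged from 30.4 to 40 FPKM (median 36.6) against 27.5, 25.3 and 13.8 (0.71 ± 0.167, limma adjusted p = 0.00335). Its exons share 428 annotated bases with Banf1 on the other strand, a gene at a median of 344 FPKM, and the strand setting of the counting was not given in the sources used here. Eif1 was among the most abundant members in both models, at 518 to 770 FPKM in RPM (median 577) and 466, 477 and 734 in RPR2. Its difference was 0.12 with an interval of -0.24 to 0.48, and RPR2 replicate 3 was above 10 of the 11 RPM tumours. The paralog Eif1b was at 65.9 to 107 FPKM (median 80.3) against 82.3, 75.3 and 40.4 (0.35, interval -0.06 to 0.76).

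Of the 14 eIF3 genes 10 rose, and the differences of all 14 ran from 0.12 to 1.45 log2 units. Eif3d, a cap-binding subunit, ranged from 118.8 to 156 FPKM in RPM (median 140.5) against 67.6, 58.7 and 60.3 in RPR2. Eif3l ranged from 104 to 127 (median 111) against 60.3, 57.0 and 49.4 FPKM. Eif3g, an RNA-binding subunit, ranged from 143 to 206 (median 183) against 83.8, 90.5 and 108. In all 3 the models were far apart, with the RPR2 tumours close together. The differences were 1.15 ± 0.112, 1.01 ± 0.109 and 0.89 ± 0.144 log2 units (SE, n = 11 and 3; limma adjusted p = 2.31e-06, 5.60e-06 and 0.000198). Eif3i had the largest mean difference, at 159 to 425 FPKM in RPM (median 269) and 116, 83.9 and 85.3 in RPR2. It is named here for its size, after its values were seen, as is the next pair.

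At the other end were Eif3a and Eif3c, core subunits of the complex. Eif3a was at 34.6 to 94.5 FPKM in RPM (median 82.7) and 93.0, 74.5 and 44.2 in RPR2 (difference 0.12, 95% interval -0.49 to 0.73). Eif3c was at 68.1 to 118.8 (median 98.4) against 89.5, 82.3 and 69.5 FPKM (0.23, interval -0.12 to 0.57). All RPR2 tumours lay inside the RPM range for both genes. Eif3k and Eif3m also did not pass (limma adjusted p = 0.147 and 0.102). For these, RPR2 replicates 1 and 2 were below every RPM tumour while RPR2 replicate 3, at 254 and 200 FPKM, was well inside the RPM ranges of 146 to 324 and 121 to 281.3. Eif3f and Eif3h passed with the same layout, at 155 and 275 FPKM in RPR2 replicate 3 against 72.9 and 77.65, and 153 and 153, in the other RPR2 tumours. Eif3b, a core subunit that also passed, ranged from 127 to 216 FPKM (median 155) against 119.15, 106 and 132, with RPR2 replicate 3 inside the RPM range. Without RPR2 replicate 3, Eif3k and Eif3m were called too (limma adjusted p = 0.0227 and 0.0111).

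The paralogs Eif3j1 and Eif3j2, for a loosely bound subunit, are 99.4% identical over 2379 bases, so the division of reads between them is uncertain. Eif3j1 was at 5.53 to 10.8 FPKM across RPM tumours and at 5.06, 5.83 and 2.48 in RPR2, and Eif3j2 at 35.2 to 58.3 against 24.0, 22.5 and 30.5. Their sum was 43.2 to 68.0 FPKM in RPM (median 52.6) and 29.0, 28.3 and 33.0 in RPR2, with no overlap.

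**Figure D2:**
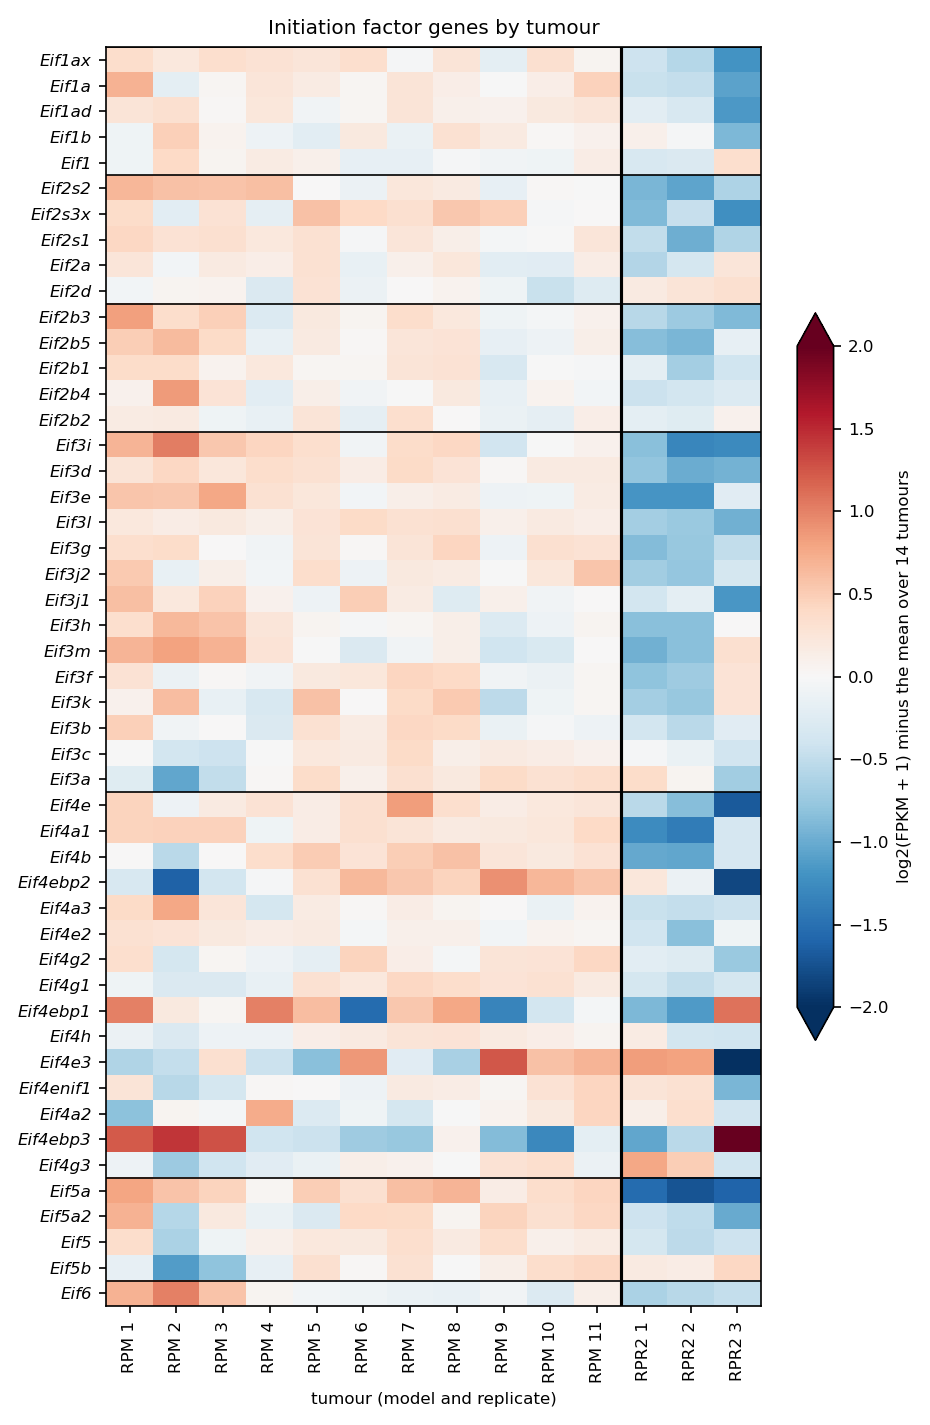
log2(FPKM + 1) of the 49 tested initiation factor genes (rows, grouped by factor and ordered by difference) in 14 tumours (columns), less each gene's mean over the tumours; colours end at -2 and 2. The 3 RPR2 columns are blue in most rows. RPR2 replicate 3 is above the other RPR2 tumours in Eif3f, Eif3k, Eif3m, Eif4b, Eif4ebp1 and Eif4ebp3, among others. It is below them in Eif4ebp2, Eif4e3 and Eif4enif1, among others. The rows of Eif4ebp1, Eif4ebp2, Eif4ebp3 and Eif4e3 vary most within RPM.

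In the eIF4 group the cap-binding protein gene and the main helicase gene rose most. Eif4e ranged from 162 to 312 FPKM in RPM (median 205) and was at 119.2, 96.4 and 53.5 in RPR2, with RPR2 replicate 3 lowest. It rose by 1.30 ± 0.209 log2 units (SE, n = 11 and 3; limma adjusted p = 0.000195). Eif4a1 ranged from 656 to 960 FPKM (median 837) against 290, 264 and 555 (1.27 ± 0.203, limma adjusted p = 0.000186). Eif4b, a cofactor of the helicase, ranged from 110 to 240 FPKM (median 193) against 77.8, 77.8 and 126, so RPR2 replicate 3 lay inside the RPM range (1.02 ± 0.213, limma adjusted p = 0.00153). A further 4 of the 15 tested genes rose, by 0.50 to 0.58 log2 units. They were Eif4g1, Eif4g2, Eif4e2 and Eif4a3. Eif4g2, a scaffold that does not bind eIF4E, ranged from 271.5 to 472 FPKM (median 380) against 298, 290.1 and 207, with 2 RPR2 tumours inside the RPM range. The paralog Eif4e2 ranged from 49.6 to 64.3 (median 55.8) against 39.2, 28.6 and 48.7 FPKM. Eif4a3, the helicase of the exon junction complex, ranged from 120 to 262 (median 161) against 112, 109.5 and 113 FPKM. The models did not overlap in Eif4e2 and Eif4a3.

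Of the paralogs of the core eIF4F genes, Eif4a2, Eif4g3 and Eif4e3 did not pass. Eif4a2 was at 138 to 409 FPKM in RPM (median 243) and 265, 309 and 187 in RPR2 (difference -0.03, 95% interval -0.57 to 0.51). In RPR2 replicates 1 and 2 the FPKM ratio of Eif4a2 to Eif4a1 was 0.914 and 1.17, and it was 0.337 in RPR2 replicate 3 and 0.145 to 0.623 in RPM (median 0.266). Eif4g1 was at 99.7 to 163 FPKM in RPM (median 142) against 96.2, 87.25 and 95.97, while Eif4g3 was at 19.2 to 41.3 (median 30.0) against 56.0, 46.1 and 24.2. Their ratio, Eif4g3 to Eif4g1, was 0.582, 0.528 and 0.252 in RPR2 and 0.192 to 0.273 in RPM. Eif4e3, a weak cap binder, was at 5.64 to 27.1 FPKM (median 9.18) against 20.1, 19.7 and 1.74. The ratio of Eif4e3 to Eif4e was 0.169, 0.204 and 0.0325 in RPR2 and 0.0287 to 0.141 in RPM. In these pairs RPR2 replicates 1 and 2 lay above all RPM tumours and RPR2 replicate 3 lay inside the RPM range.

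Ratios within a library do not depend on scaling between libraries apart from the pseudocount. Of 6 ratios tested by two-sided exact permutation over 364 splits of the tumours, 3 passed after Benjamini-Hochberg adjustment over the 6. On the log2 scale Eif4a2 to Eif4a1 was lower in RPM by a difference of -1.30 (exact p = 0.0110, adjusted p = 0.0220). Eif4g3 to Eif4g1 differed by -0.87 (exact p = 0.0110, adjusted p = 0.0220). Eif5a2 to Eif5a differed by -1.25 (exact p = 0.00275, the smallest these splits can give, adjusted p = 0.0165). The pseudocount weighs on this ratio, because Eif5a2 is low. Without a pseudocount the FPKM ratio was 0.0103, 0.0108 and 0.00584 in RPR2 and 0.00205 to 0.00668 in RPM, so the models overlapped. Eif4e3 to Eif4e (-1.096, exact permutation adjusted p = 0.107), Eif4ebp1 to Eif4e (-0.91, adjusted p = 0.267) and Eif1b to Eif1 (0.23, adjusted p = 0.418) did not pass by the same test. Without RPR2 replicate 1 or 2 there are 78 splits, and the smallest p they allow, 0.0128, adjusts to 0.0769 when 1 ratio reaches it, so that no single ratio could pass alone. Eif5a2 to Eif5a was at that limit both times (-1.18 and -1.12, exact permutation), and none of the 6 passed. Without RPR2 replicate 3 the ratio of Eif4e3 to Eif4e passed (-1.74, exact permutation adjusted p = 0.0192), as it did without RPM replicate 9 (-1.23, adjusted p = 0.0472). The sign turned without RPR2 replicate 3 for Eif1b to Eif1 (-0.30) and Eif4ebp1 to Eif4e (0.12), neither of which was called.

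**Figure D3:**
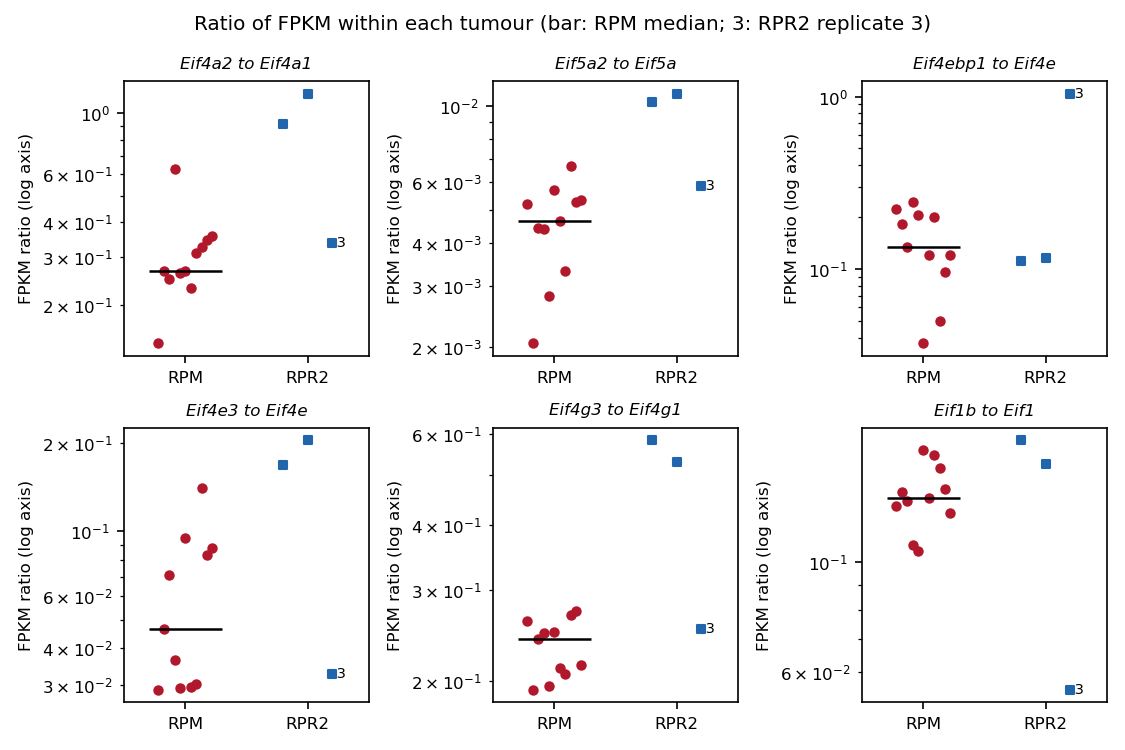
FPKM ratios of 6 pairs of initiation factor genes within each tumour on log axes, for 11 RPM (circles, bar at the median) and 3 RPR2 tumours (squares, replicate 3 marked). For Eif4a2 to Eif4a1, Eif5a2 to Eif5a, Eif4e3 to Eif4e and Eif4g3 to Eif4g1, RPR2 replicates 1 and 2 lie above all RPM tumours and replicate 3 within their range.

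The 4E-binding protein genes, whose products keep eIF4E from the scaffold, did not pass in either direction. Eif4ebp1 was at 8.08 to 52.5 FPKM in RPM (median 29.5) and 13.3, 11.1 and 55.4 in RPR2, with a difference of 0.39 and an interval of -0.78 to 1.57. Eif4ebp2 was at 8.45 to 53.2 FPKM (median 38.3) against 32.7, 25.5 and 7.19 (0.73, interval -0.27 to 1.73). Eif4ebp3 was at 0.92 to 11.5 FPKM (median 2.55) against 1.26, 2.20 and 21.0 (-0.27, interval -1.70 to 1.15). RPR2 replicate 3 was the highest of all 14 tumours for Eif4ebp1 and Eif4ebp3 and the lowest for Eif4ebp2. The ratio of Eif4ebp1 to Eif4e was 1.04 there, against 0.111 and 0.115 in the other RPR2 tumours and 0.0370 to 0.246 in RPM. Eif4h, another helicase cofactor, and Eif4enif1, which carries eIF4E into the nucleus, had differences of 0.26 and 0.15 and did not pass.

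Eif5a showed the largest difference of all members. Its product, like that of Eif5a2, carries hypusine, a lysine modified with spermidine, and acts in elongation and termination as well as in initiation, for which it was named. Eif5a ranged from 856 to 1445 FPKM in RPM (median 1132) and was at 286, 249 and 274 in RPR2. Every RPM tumour was thus far above the RPR2 tumours, RPR2 replicate 3 included. The difference was 2.07 ± 0.174 log2 units (SE, n = 11 and 3; limma adjusted p = 6.99e-07). In the order of FPKM by model median Eif5a was the first of the 50 genes in RPM and the fourth in RPR2, where Eif1 (477), Eif4a1 (290) and Eif4g2 (290) preceded it. The paralog Eif5a2 was much lower, at 2.53 to 7.53 FPKM in RPM (median 5.57) and 2.94, 2.70 and 1.60 in RPR2 (0.82 ± 0.251, limma adjusted p = 0.0172). Dhps and Dohh, the enzymes that make hypusine, rose by 1.51 ± 0.422 and 0.73 ± 0.148 log2 units (limma adjusted p = 0.0101 and 0.00119).

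Eif5, the GTPase activator of eIF2, ranged from 61.9 to 123.96 FPKM in RPM (median 110) against 76.0, 67.2 and 72.0, with RPM replicate 2 alone below RPR2 (0.55 ± 0.176 log2 units, SE, n = 11 and 3; limma adjusted p = 0.0219). Eif5b, which joins the ribosomal subunits, was at 10.1 to 30.8 FPKM (median 23.3) against 26.0, 25.7 and 30.9 and did not pass (-0.31, 95% interval -0.91 to 0.28). It shares 1643 annotated exon bases with Rev1 on the other strand, at a median of 22.9 FPKM. Eif6, which keeps the large subunit from joining too early and acts in its assembly, ranged from 86.5 to 212 FPKM (median 100.5) against 67.3, 71.4 and 75.2. The models did not overlap, and RPM replicates 1, 2 and 3 were highest (0.70 ± 0.239, limma adjusted p = 0.0288).

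**Figure D4:**
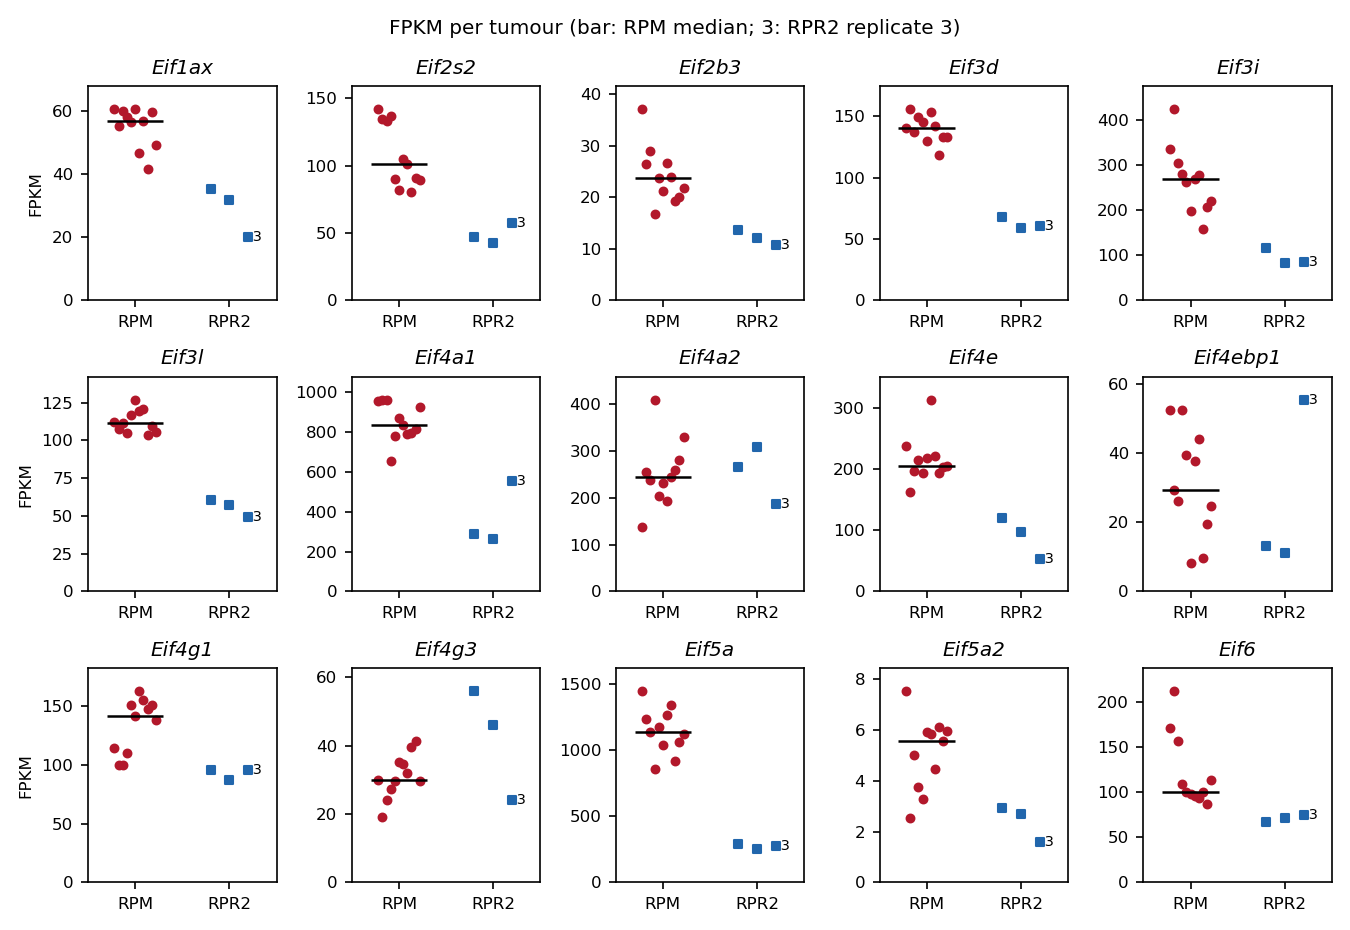
FPKM of 15 initiation factor genes in each of 11 RPM (circles, bar at the median) and 3 RPR2 tumours (squares, replicate 3 marked), each axis from 0. Eif5a runs from 856 to 1445 in RPM against 249 to 286 in RPR2, whereas Eif4a2 and Eif4ebp1 overlap between the models and Eif4g3 is higher in RPR2 replicates 1 and 2 than in any RPM tumour.

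Reads of a gene and its near-identical pseudogenes can be divided between them. Of 37 pseudogenes that match a member over at least 80% of their length at 90% identity or more, 7 reached 1 FPKM in any tumour. Eif4a-ps4, 99.9% identical to Eif4a1, was at 0, 0.31 and 0 FPKM in RPM replicates 1, 2 and 3. In the other 8 RPM tumours it was at 102 to 213, and in RPR2 at 113, 86.0 and 19.6. Eif4a1 with its pseudogenes added was at 759 to 1032 FPKM in RPM (median 968) and 403, 350 and 575 in RPR2, again with no overlap, and its difference was 1.14 in place of 1.27. Eif5al3-ps, 97.2% identical to Eif5a, had every RPM tumour above RPR2, at 58.65 to 106 FPKM against 17.25, 18.1 and 16.9. Adding it to Eif5a moved the difference from 2.07 to 2.08.

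The members are spread over 18 chromosomes, and some lie close to a gene that the models alter. Eif4a1 (chromosome 11, 69666936 to 69672423, minus strand, GRCm38) lies 75.1 kb from Trp53, and Eif5a (chromosome 11, 69916714 to 69921958, minus strand) 325 kb from it. Of the genes tested on chromosome 15, which also holds Myc, 23.0% rose (134 of 583), beside 18.4% over all chromosomes and 61.2% of the members, and the 5 members there all did. Of these, Eif3h (51786558 to 51865523, minus strand) lies nearest, at 10.1 Mb from Myc, and Eif3d, Eif3e, Eif3l and Eif4b lie 15.97 to 40.1 Mb away. Whether copy number differs at these loci was not tested.

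MYC with its partner MAX binds the E-box CACGTG, so the promoters of the members were searched for these letters, which read the same on both strands. The RefSeq table (GRCm38.p6, from 250 bases before to 50 after a transcription start) held 50 promoters of 38 members. The letters were found in 12 of them (24.0%), against 7.15% of all 32851 promoters of that length. By gene this was 10 of 38 members (26.3%), beside 8.09% of all genes in the table and 11.5% of those tested here. Of the 10, 6 rose (Eif5a, Eif4e, Eif4a1, Eif5a2, Eif4g1 and Eif3f) and 4 did not pass (Eif4h, Eif3k, Eif1b and Eif3a). The share was 27.3% of the 22 called members with a promoter and 25.0% of the 16 not called. The windows of 60 bases shown here lie upstream of a RefSeq start and outside protein-coding exons. A window of Eif4g1 also met this description and is not shown. The windows are for 4 of the genes that rose and, for contrast, for Eif3k, which did not pass. They have the motif in capitals and read 5′ to 3′ on the strand of the gene.
Eif5a, chr11:69921428-69921487, minus strand: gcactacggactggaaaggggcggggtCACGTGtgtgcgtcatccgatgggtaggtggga
Eif5a2, chr3:28781108-28781167, plus strand: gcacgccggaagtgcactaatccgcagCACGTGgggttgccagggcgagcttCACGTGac
Eif3f, chr7:108934320-108934379, plus strand: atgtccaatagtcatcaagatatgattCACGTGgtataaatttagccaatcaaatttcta
Eif4a1, chr11:69672580-69672639, minus strand: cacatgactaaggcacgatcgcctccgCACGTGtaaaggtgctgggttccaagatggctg
Eif3k, chr7:28981900-28981959, minus strand: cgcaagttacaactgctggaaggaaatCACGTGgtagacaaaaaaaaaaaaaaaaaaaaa
In Eif5a the motif shown begins 74 bases before the nearest RefSeq start downstream of it, in Eif3f 68 and in Eif3k 44 bases before, and Eif5a2 holds it at 142 and 117 bases. By the GENCODE gene boundaries the Eif5a window lies inside the gene, downstream of its most distant start, and the other windows shown lie outside their genes. A match is a description of the sequence and does not show binding in these tumours.

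Lists of neighbouring steps of translation were set beside the members. Of 12 genes of elongation and termination, 9 rose and none fell (median difference 1.02, beside -0.06 for all tested genes). Eef2, the translocase, was at 853 to 1578 FPKM across RPM tumours and at 566, 521 and 689 in RPR2 (1.09 ± 0.214 log2 units, SE, n = 11 and 3; limma adjusted p = 0.000950). Eef1e1, a member of the tRNA synthetase complex, was at 58.6 to 108 against 19.6, 13.2 and 17.7 FPKM (2.18 ± 0.190, limma adjusted p = 9.16e-07). Of 13 helpers of initiation 8 rose and none fell (median 0.60), among them the poly(A)-binding protein gene Pabpc4 and the recycling factor gene Abce1, by 1.53 and 1.16 log2 units. Of 16 genes of mTORC1 and cap-binding signalling, Rps6kb1 and Rps6 rose and Deptor and Mknk2 fell (median 0.07), which is 12.5% in each direction, below the shares over all tested genes (18.4% and 22.8%). Deptor, an inhibitor of mTOR, was at 0.54 to 3.01 FPKM across RPM tumours and at 5.15, 6.47 and 4.43 in RPR2 (-1.19 ± 0.245, limma adjusted p = 0.00134).

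Of 13 genes of eIF2 kinases and the integrated stress response, Atf4, Gcn1l1 and Asns rose and Eif2ak2 and Ppp1r15b fell (median -0.02), or 23.1% and 15.4%, near the shares over all tested genes. Eif2ak2 encodes PKR, the kinase activated by double-stranded RNA, and was at 1.2 to 5.30 FPKM in RPM against 23.5, 22.4 and 6.78. Its difference was -2.04 ± 0.325 log2 units (limma adjusted p = 0.000184), and RPR2 replicate 3 was the nearest to RPM. The other 3 kinase genes, Eif2ak1, Eif2ak3 and Eif2ak4, had differences of -0.07, -0.36 and -0.02 and did not pass.

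Among the 11 RPM tumours most members varied less than the median of all genes tested, a set not matched to the members by level. The median SD of log2(FPKM + 1) was 0.263 over the 49 tested members and 0.381 over all 14862 genes tested in RPM, and 39 of the 49 lay under the second value. Eif4ebp3 (SD 0.950), Eif4ebp1 (0.868), Eif4ebp2 (0.717) and Eif4e3 (0.717) were the 4 most variable members, followed by Eif5b at 0.490. Eif4ebp1 was lowest in RPM replicates 6 and 9, at 8.08 and 9.66 FPKM, which held the highest levels of Eif4e3, at 20.8 and 27.1. Eif4ebp3 was highest in RPM replicates 1, 2 and 3, at 9.96, 11.5 and 10.3 FPKM, against at most 3.94 in the other RPM tumours. RPM replicate 2, an LSL/+ tumour, was often at an end of the RPM range, in genes of several factors. It was the lowest RPM tumour for Eif4e, Eif4ebp2, Eif4g1, Eif4g2 and Eif4g3, and also for Eif1a, Eif2s3x, Eif3a, Eif4b and Eif5, among others. It was the highest for Eif1, Eif3d, Eif3h, Eif3i, Eif4a3 and Eif6, among others. Its library had the largest summed FPKM (9.4e+05) and the fewest genes at 1 FPKM or more (12994). The title numbers of RPM replicates 6 and 7 are the same, as are those of replicates 10 and 11, and the labels do not say whether these are tumours of 1 mouse. All p-values measure the spread between these samples.

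**Figure D5:**
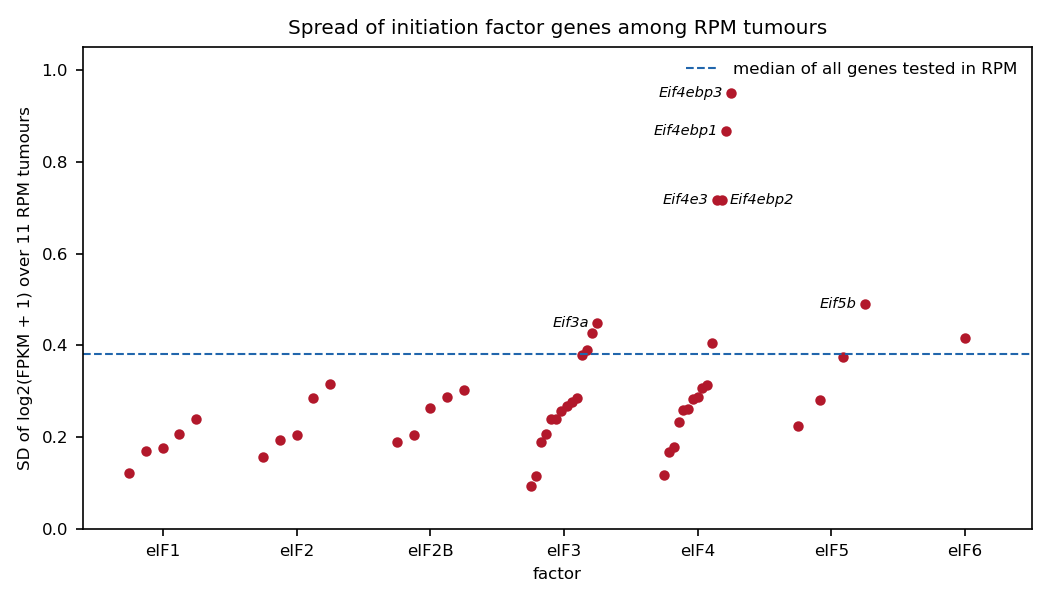
Standard deviation of log2(FPKM + 1) over 11 RPM tumours for each of 49 initiation factor genes, by factor; the dashed line is the median of all genes tested in RPM (0.381). Most members lie below the line, and the 3 Eif4ebp genes and Eif4e3 lie highest, at 0.717 to 0.950.

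The 9 LSL/LSL tumours were compared with the 2 LSL/+ tumours to ask whether allele number bears on these genes. No member of 49 was called in either direction by limma, and of all 14862 genes tested 1 was called, lower in LSL/LSL (0.00673%), and none higher (0%). At an unadjusted p under 0.05 there were 9 members (18.4%), beside 17.3% of all tested genes. The median difference was 0.05 log2 units for the members and 0.16 for all tested genes. The smallest adjusted p was 0.242, reached by Eif2s3x and Eif4ebp2. Eif4ebp2 was at 21.4 to 53.2 FPKM in LSL/LSL and at 8.45 and 27.3 in LSL/+, a difference of 1.196 with a 95% interval of 0.35 to 2.05. The 95% intervals of the 49 members were between 0.515 (Eif3l) and 2.88 (Eif4ebp3) log2 units wide, with a median width of 0.827.

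Of the 30 members called between the models, 16 kept their call in each of 25 alternatives. They were Eif1ax, Eif2s1, Eif2s2, Eif2s3x, Eif2b3, Eif2b5, Eif3d, Eif3e, Eif3g, Eif3i, Eif3j2, Eif3l, Eif4a1, Eif4b, Eif4e and Eif5a. Under TPM scaling 12 calls were lost, those of Eif1a, Eif1ad, Eif2b1, Eif3b, Eif3f, Eif3j1, Eif4a3, Eif4e2, Eif4g1, Eif4g2, Eif5 and Eif5a2 (limma adjusted p = 0.0543 to 0.419). Other calls were lost when single tumours were left out, which also leaves fewer samples. The share of all tested genes that rose was 16.1% without RPR2 replicate 1 and 14.9% without RPR2 replicate 2, beside 18.4% with all tumours. Under TPM scaling this share was 11.95%. The calls of Eif3b, Eif3f, Eif3h, Eif4a3, Eif4g1 and Eif6 were lost without RPR2 replicate 1 (limma adjusted p = 0.0524 to 0.271). These 6 and Eif2b1, Eif4e2, Eif4g2 and Eif5 were lost without RPR2 replicate 2 (0.0591 to 0.236), which left 20 called. Eif3j1, Eif4g2 and Eif5a2 were lost without RPR2 replicate 3 (0.0809 to 0.173). In that setting Eif2a, Eif3k and Eif3m were called higher and Eif4g3 lower (0.0111 to 0.0227), and 30 members were called higher as before. Eif3f lost its call without any of RPM replicates 1, 3, 5, 6, 7, 8 and 11, and Eif4g2 without 1, 6, 7, 9, 10 or 11 (limma adjusted p of 0.05004 to 0.0665). Eif2b4 gained a call without RPM replicate 2, 4 or 9, and Eif2d was called lower without RPM replicate 5 (0.0498).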

How the data were processed

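RNA of 14 mouse lung tumours was sequenced from stranded, poly(A)-selected libraries, per the labels' protocols. The authors deposited 1 table of FPKM values per gene and tumour. RSEM 1.2.12, Bowtie 1.0.1 and mm10 are listed in the submitters' processing notes without saying how each was used. Which annotation, strand setting and scaling were used was not given in the sources read here. Columns were assigned to samples through the sample titles, and groups follow the genotype and source name labels. Library identifiers differ in form between the models, and that difference and the model cannot be told apart.

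Symbols, coordinates and transcripts came from GENCODE M21 on GRCm38 (46005 of 46517 identifiers matched), and the reporter row was left out. FPKM values were tested as log2(FPKM + 1) with limma 3.58.1 in R 4.3.3 (trend, Benjamini-Hochberg), and ratios by exact permutation. The whole table was fitted. The genes, lists and tests were chosen with earlier results of these data known. Values per tumour are given for the 3 members of a factor with the smallest p, the genes of the ratios and members whose call 1 tumour changed. Others are said to be chosen after their values were seen, or are given by range and count. The values of Eif3j2, Eif4ebp2, Eif4ebp3, Eif5b and some genes of the lists fall under none of these rules. Pseudogenes were matched with BLAST+ 2.17.0. Alternatives were a pseudocount of 0.1, no filter, a mean FPKM of at least 5, TPM, median-of-ratios and quantile scaling, array weights, the title number as a random effect, pseudogenes added to parents, LSL/LSL tumours alone and each tumour left out.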

Additional observations from a re-analysis of the deposited data

Results flagged for a closer look

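Eif4e stood at 312 FPKM in RPM replicate 7, apart from the other LSL/LSL tumours, of which the next was at 237 and the lowest at 193. It was the only 1 of 50 members whose extreme value lay beyond the limit of Dixon's ratio for 9 tumours, a limit that chance passes in about 1 of 20 groups.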

How the results depend on the processing

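The count of members higher in RPM was 18 under TPM scaling, where 1 fell (Eif2d), against 30 and 0 as reported. Of all tested genes 11.95% rose under TPM scaling, against 18.4% as reported. TPM scaling moved the median of all tested genes from -0.06 to -0.23. Relative to that median the members' median was 0.62 there, 0.64 as reported, 0.65 with median-of-ratios and 0.52 with quantile scaling. One member was called lower with quantile scaling (Eif1, -0.52), where 26 rose, and 2 with array weights (Eif2d and Eif4g3), where 39 rose. Of all 15719 tested genes 23.3% rose and 3066 genes fell with quantile scaling. Array weights called more genes of every kind, with 27.3% of all tested genes higher and 6577 genes lower. Eif1 was called higher with array weights (0.27). Leaving out single tumours gave 20 to 31 members higher and 0 to 1 lower, with 14.9 to 19.4% of all tested genes higher. The other alternatives, of which the adding of pseudogenes by sequence was chosen after seeing the data, gave 28 to 31 higher and 0 lower. In these, 8.62% (no filter) to 23.8% (mean FPKM of at least 5) of all tested genes were higher. No called member changed sign in any alternative. Tumours sharing a title number had an estimated correlation of 0.762, and that fit called 28.

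For the ratios, values without single tumours ran from -1.84 to -0.94 for Eif4a2 to Eif4a1, -1.45 to -1.12 for Eif5a2 to Eif5a, -1.24 to -0.65 for Eif4g3 to Eif4g1, -1.74 to -0.70 for Eif4e3 to Eif4e, -1.44 to 0.12 for Eif4ebp1 to Eif4e and -0.30 to 0.53 for Eif1b to Eif1. The ratios lost without RPR2 replicate 1 or 2 have 78 splits, whose smallest exact permutation p is 0.0128. In LSL/LSL against LSL/+ every alternative gave 0 members in both directions. No paired analysis was possible because the labels give no replicate numbers shared between the groups. Eif4e1b was near the level of 3 reads and could not be compared.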
